A study of Mus musculus with 20 samples.

Results

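The comparison described here asks whether the peptide IDR1018 alters what hypoxia-ischemia does to the injured side of the mouse brain relative to the uninjured side of the same brain. For each animal the value of the right hemisphere was subtracted from that of the left, and the 5 differences of animals given IDR1018 were set against the 5 of animals without it. The difference between those group means, with the peptide minus without, is called the interaction. An interaction below 0 means that the left minus right difference was lower with the peptide. All 20 of the 20 arrays of the series entered, as 10 animals. No measured value was used to choose animals or arrays.

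Total RNA of the hemispheres of C57/Bl6 mice, given as adult, was hybridised to biotin-labelled Affymetrix arrays, 1 array for each hemisphere. The 4 groups of 5 arrays were the injured left and the uninjured right hemisphere of mice that had LPS + HI, and the same hemispheres of mice that had LPS + HI + IDR1018. LPS is bacterial lipopolysaccharide and HI is hypoxia-ischemia, so every animal carried both the inflammatory sensitisation and the insult, and the uninjured side is exposed to LPS and low oxygen as well. The labels give neither dose, route nor time of collection, and no animals free of LPS and HI are among the groups. Values are log2 units of RMA, a summary of the probes of each probe set after normalisation, so a difference of 1 is a doubling.

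Hypoxia-ischemia deprives brain tissue of oxygen and glucose. Dying neurons then release signals that activate microglia, astrocytes and vessels, which make cytokines and chemokines that draw in blood leukocytes. LPS acts on Toll-like receptor 4 of microglia, border cells and vessels, and exposure before the insult can enlarge the lesion in this model. IDR1018 belongs to the innate defence regulators, short synthetic peptides derived from natural host defence peptides that shift the cytokine output of leukocytes. Interleukin-1, the chemokines, prostaglandin synthesis and the stress genes of injured tissue are the readouts most often followed in such a setting.

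In its cell types the tissue matched its label as brain, while the age of the mice was not tested. Of 19 marker genes of neurons, astrocytes, oligodendrocytes, microglia and endothelium 17 were measured, and all 17 lay above the control median in all 20 arrays. The control median is the median of the 6573 control probe sets of an array, used here as a level near the background. Of the measured markers of blood cells, 3 of 5 for neutrophils, 2 of 3 for monocytes and 3 of 4 for lymphocytes lay below it in every array, so that values of blood cell genes rest on weak signals. The mean left minus right difference of the 3 endothelial markers averaged 0.25 (range 0.10 to 0.53) without and 0.13 (-0.074 to 0.26) with the peptide. Over the 16 genes of the endothelial and barrier list below, it averaged -0.025 without and -0.12 with the peptide. The mean difference of the 3 measured of 4 microglial markers averaged -0.36 (-0.45 to -0.25) without and -0.23 (-0.32 to -0.15) with it. The 1 measured erythrocyte marker, Alas2, averaged 0.45 and 0.24. Slc4a1, the other measured gene of the erythrocyte list below, averaged 0.071 over all animals and had an interaction of 0.015. The part of these shifts in the gene values below was not tested. In such bulk tissue, fewer cells of a type and less RNA per cell cannot be told apart. The left arrays carry the numbers 1 to 10 and the right arrays 11 to 20, so that the order of the arrays and the side of the brain are confounded and cannot be told apart either, while both treatments lie within each run of numbers. Animals are named by treatment and replicate number, and those without peptide are called untreated, although they had LPS and HI. Where values of both groups follow each other, the untreated animals come first, each group in the order of replicates 1 to 5.

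No gene passed the test. Of 28187 probe sets, 0 (0%) had a limma interaction with a Benjamini-Hochberg adjusted p below 0.05, the smallest adjusted p being 1.00, and 923 (3.27%) had an unadjusted p below 0.05. Over 19937 genes, 257 (1.29%) had such an unadjusted p with a positive and 313 (1.57%) with a negative interaction. The median interaction over all genes was -0.0010, and 50.7% of genes lay below 0. The 5 differences with the peptide lay wholly above the 5 without it for 44 genes (0.221%) and wholly below for 45 (0.226%). Every gene described below therefore carries an adjusted p of 1.00 by limma in this comparison, and its interaction is given as an estimate ± SE with a 95% confidence interval from the same fit. The median gene had an interval reaching 0.15 to either side of its estimate, and 90% of genes had one of at most 0.22. These intervals are not adjusted for the number of probe sets. The adjusted test needs larger differences than these, and the smallest difference that it could detect was not determined.

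A difference between the hemispheres was plain in the same animals, in which injury and array order cannot be told apart, as given above. Averaged over all 10, 3386 genes (17%) were higher and 3694 (18.5%) lower in the left hemisphere at an adjusted p below 0.05 by limma. Of the 124 genes that were at least 1.5-fold higher in the left hemisphere, 100 (80.6%) had an interaction below 0, with a median of -0.12; over all genes 50.7% did. Their mean difference was 0.90, 0.86, 1.21, 0.98 and 1.26 in the 5 animals without peptide, replicates 1 to 5, and 0.79, 0.99, 0.90, 1.02 and 0.78 in the 5 with it. Replicates 3 and 5 without peptide stood highest, and the groups overlapped. The group means were 1.04 ± 0.18 and 0.90 ± 0.11 (SD, n = 5 each), a gap smaller than the SD among untreated animals. Without replicate 5 of the animals without peptide, 85 of the same 124 genes lay below 0 and the median was -0.074. A negative interaction with an unadjusted limma p below 0.05 was held by 16.1% of the 124 genes, against 1.57% of all genes. Of the 3386 genes higher on the left, 60.6% lay below 0 and 2.75% had such a p on the negative side. Many lists below hold mostly genes raised on the left, and their counts are to be read beside these shares.

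The 39 genes that were at least 2-fold higher on the left had a mean difference of 1.59 without and 1.37 with the peptide, and 35 of them lay below 0. Among the 3694 genes lower on the left, 59.4% had an interaction above 0, with a median of 0.013. These values were 51.2% and 0.0017 with the left minus right difference of the control median as a covariate, and 52.6% and 0.0033 without treated replicate 1. With the same covariate 86 of the 124 genes raised at least 1.5-fold lay below 0, with a median of -0.079. Genes with no call between hemispheres, 12857 in number, were split evenly, with 51.0% below 0.

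**Figure D1:**
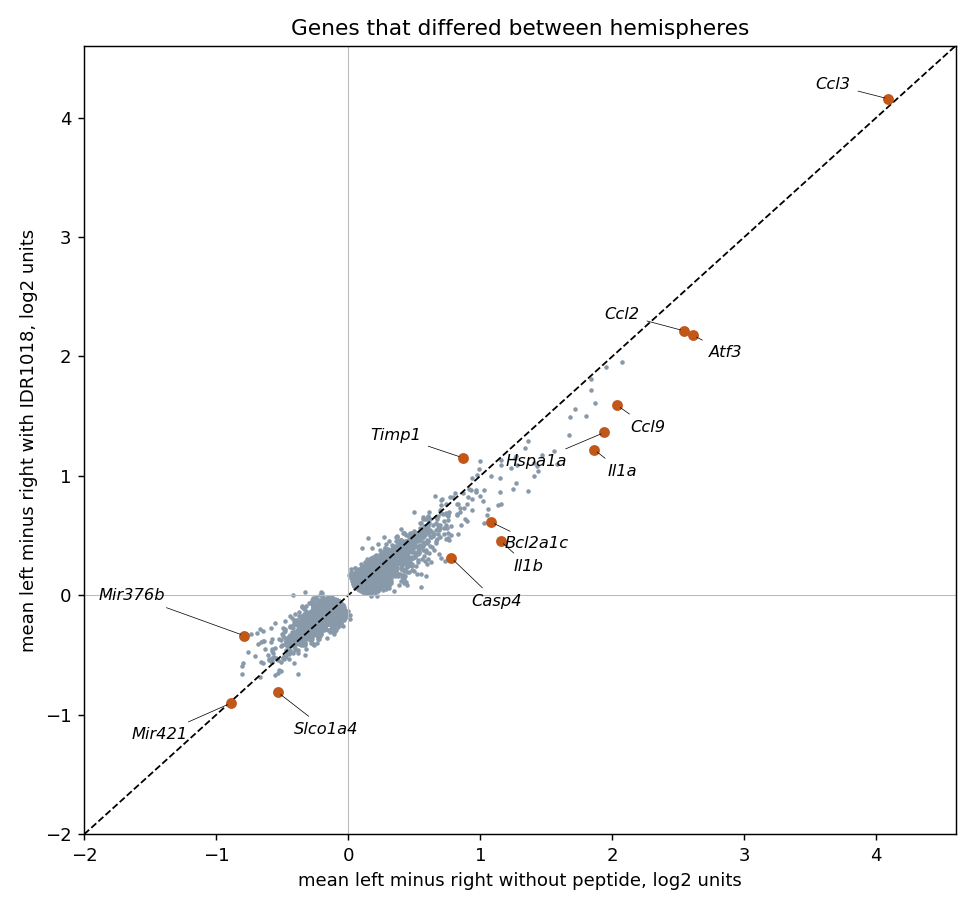
Each grey point is 1 of the genes that differed between hemispheres over all 10 animals, placed by its mean left minus right difference in log2 units in the 5 animals without peptide (horizontal axis) and the 5 with IDR1018 (vertical axis); orange points carry names and the dashed line marks equal differences. Most genes with a large rise lie near or below the line, as Il1b does at 1.15 and 0.45, while Ccl3 lies on it at 4.09 and 4.16.

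The interleukin-1 genes Il1b and Il1a had the most negative interactions of the 7080 genes that differed between hemispheres. Il1b encodes interleukin-1 beta, the cytokine released by activated microglia and macrophages once caspase-1 has cleaved it. In animals without peptide its left hemisphere values were 7.75, 7.03, 8.04, 7.24 and 8.06 and its right hemisphere values 6.30, 6.50, 6.47, 6.52 and 6.55, in replicate order. With the peptide the left values were 6.78, 7.04, 6.81, 7.25 and 6.46 and the right values 6.29, 6.38, 6.38, 6.49 and 6.52. The right hemispheres of both groups lay in the same narrow range, and the highest left values were those of replicates 1, 3 and 5 without peptide. The differences were 1.45, 0.53, 1.57, 0.72 and 1.51 without and 0.50, 0.66, 0.42, 0.75 and -0.062 with the peptide, so the groups overlapped through replicates 2 and 4 without peptide. The means were 1.15 ± 0.49 and 0.45 ± 0.32 (SD, n = 5 each), and the interaction was -0.70 ± 0.22 (95% interval -1.17 to -0.23). All right hemisphere values lay below the median control probe set, as did 3 of 5 left values with the peptide, so the smaller differences rest on signals near the background of the arrays.

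Il1a, the gene of interleukin-1 alpha, which dying cells can release as an alarm signal, showed a similar arrangement. Its left minus right differences were 1.78, 1.04, 2.68, 1.48 and 2.34 without and 1.37, 1.47, 1.26, 1.36 and 0.62 with the peptide. Of the animals without peptide, 4 exceeded every peptide-treated animal and replicate 2 did not. The means were 1.86 ± 0.66 and 1.22 ± 0.34, with an interaction of -0.65 ± 0.27 (95% interval -1.24 to -0.049). The treated mean relative to the untreated one was -0.86 in the left and -0.22 in the right hemisphere, the latter below the control median in all animals. Replicate 5 of the treated animals held the lowest difference of both interleukin-1 genes, and without it the interaction was -0.57 for Il1b and -0.50 for Il1a. As each animal was left out in turn, the interaction ranged from -0.86 to -0.57 for Il1b and from -0.85 to -0.44 for Il1a.

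The 250 bases before the start sites of both genes are shown because of those interactions, and that of the chemokine gene Ccl9 because it is the CC chemokine with the most negative one. They are from RefSeq, build GRCm38.p6, minus strand, 5′ to 3′. 5 kinds of motif were searched on either strand, and capitals mark the matches. The first was the TATA box, TATAAA, where the start of transcription is set. For AP-1, the site of Fos, Jun and Atf3 dimers, the letters searched were TGANTCA. The cyclic AMP response element was searched as TGACGTCA. For C/EBP proteins the pattern was TTGNNCAA. NF-kB was searched by its consensus, 10 letters long. All 3 genes had an entry. The windows are chr2:129309973-129310222, chr2:129371140-129371389 and chr11:83578637-83578886.
Il1a: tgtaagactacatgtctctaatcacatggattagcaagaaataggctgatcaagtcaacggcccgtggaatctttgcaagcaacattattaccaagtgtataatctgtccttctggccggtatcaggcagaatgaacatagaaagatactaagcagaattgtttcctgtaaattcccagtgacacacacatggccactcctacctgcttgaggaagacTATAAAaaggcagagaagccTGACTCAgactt
Il1b: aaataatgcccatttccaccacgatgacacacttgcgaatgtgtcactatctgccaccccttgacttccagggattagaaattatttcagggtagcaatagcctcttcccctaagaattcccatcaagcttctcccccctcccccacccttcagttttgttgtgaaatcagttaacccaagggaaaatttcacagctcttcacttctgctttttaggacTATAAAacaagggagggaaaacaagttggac
Ccl9: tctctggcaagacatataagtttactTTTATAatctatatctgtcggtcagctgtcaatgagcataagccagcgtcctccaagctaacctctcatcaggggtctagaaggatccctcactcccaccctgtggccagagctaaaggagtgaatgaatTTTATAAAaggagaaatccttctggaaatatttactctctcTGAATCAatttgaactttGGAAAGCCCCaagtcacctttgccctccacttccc
Both interleukin-1 windows hold a TATA box, ending 27 bases before the start in Il1a and 26 in Il1b, and Il1a has an AP-1 match that begins 12 bases before its start. The NF-kB consensus was matched in the window of Ccl9 alone of the 3, from 35 bases before the start, beside 3 TATA matches, of which 2 on opposite strands overlap, and an AP-1 match. Of 32851 mouse promoters of this length before the start, 12.4% hold TATAAA, 6.75% the AP-1 letters, 3.90% the NF-kB consensus, 5.65% TTGNNCAA and 1.55% TGACGTCA. A match describes the letters and does not show binding.

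Of the 13 measured genes of the interleukin-1 family and inflammasome, 9 had an interaction below 0, the median was -0.033, and 4 had an unadjusted p below 0.05, all on the negative side. Such a p on the negative side was held by 1.57% of all genes. Called over all animals, 7 of the 13 were higher on the left. The median of the list ranged from -0.069 without treated replicate 1 to -0.019 without untreated replicate 4. Casp4, the inflammatory caspase that senses intracellular LPS, differed by 0.56, 0.56, 1.01, 0.86 and 0.93 without and 0.12, 0.68, 0.074, 0.53 and 0.15 with the peptide. Treated replicate 2 stood among the untreated animals and the other 4 treated animals below them. The interaction was -0.47 ± 0.13, although Casp4 lay above the control median in only 3 of 20 arrays. Nlrc4, an inflammasome sensor, was below it in all arrays, was not called between hemispheres and had an interaction of -0.19 ± 0.068. The receptor antagonist Il1rn and the sensor Nlrp3 lay closer to 0, with interactions of -0.070 and -0.033.

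**Figure D2:**
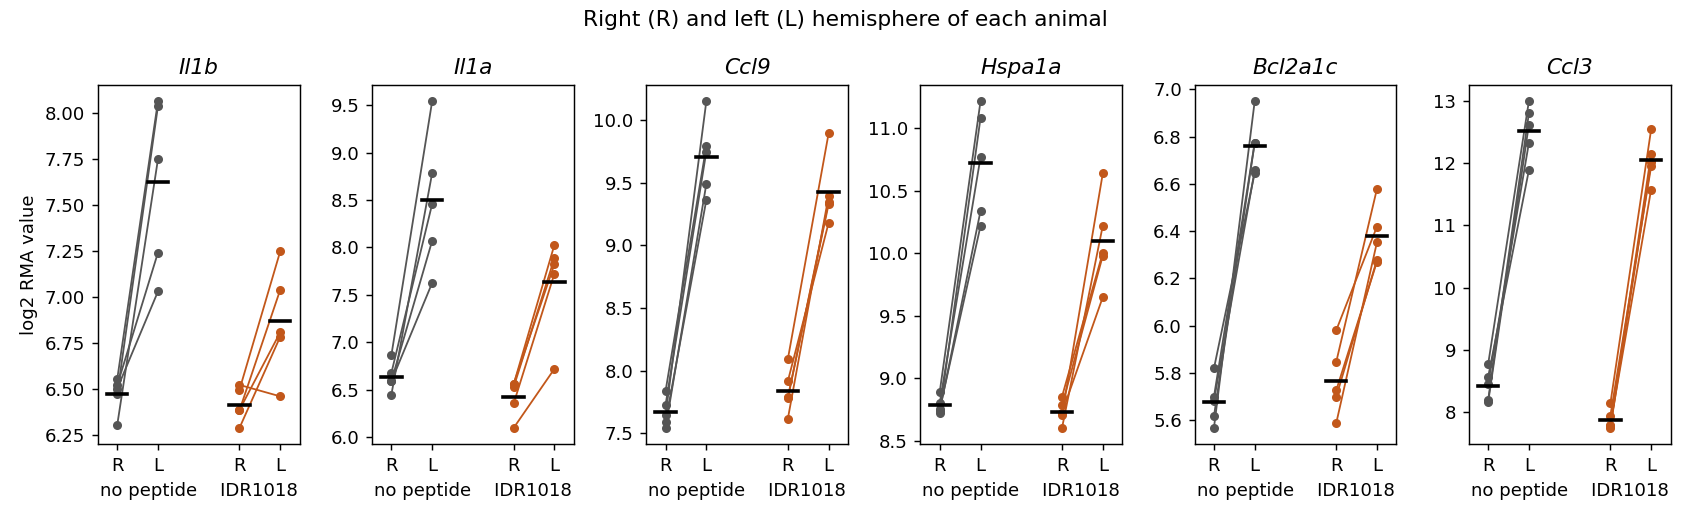
Log2 RMA values (vertical axis) in the right (R) and left (L) hemisphere of each animal, joined by a line, for 6 genes, with animals without peptide in grey, animals with IDR1018 in orange and group means as black bars. The right hemispheres of both groups lie close together for Il1b while its left mean is 0.76 lower with the peptide; for Ccl3 the peptide group lies lower in both hemispheres, by 0.48 and 0.54.

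The chemokines divided by gene. Ccl3, which draws monocytes and other leukocytes and had the largest rise of all genes on the left, differed by 4.45, 3.32, 4.22, 3.87 and 4.60 without and 4.26, 4.37, 4.00, 4.39 and 3.77 with the peptide. The 5 treated animals lay inside the range of the 5 others. Its interaction was 0.065 ± 0.22 (95% interval -0.40 to 0.54), which does not reach a 1.5-fold change of the left to right ratio in either direction. Relative to untreated animals the treated mean was -0.48 ± 0.25 (SE) in the left and -0.54 ± 0.14 in the right hemisphere, a gap of about the same size on both sides. Cxcl10, an interferon-induced attractant of T cells, likewise differed by 1.84 ± 0.33 without and 1.81 ± 0.27 with the peptide, with an interaction of -0.031 ± 0.16 (95% interval -0.38 to 0.32).

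Ccl9, a myeloid chemokine of rodents, had the most negative interaction of the CC chemokines. Its differences were 1.95, 1.95, 2.02, 1.77 and 2.50 in untreated and 1.26, 1.57, 1.78, 1.80 and 1.54 in treated animals. Replicate 4 without peptide, at 1.77, was the only one of the untreated animals inside the range of the treated. The means were 2.04 ± 0.28 and 1.59 ± 0.22, a 4.11-fold and a 3.01-fold left to right ratio, and the interaction was -0.45 ± 0.13 (95% interval -0.74 to -0.16). With the peptide the left hemispheres were 0.28 lower and the right hemispheres 0.17 higher. Ccl6, a close relative of Ccl9, was likewise 0.22 lower on the left and 0.12 higher on the right, with means of 1.43 ± 0.19 and 1.08 ± 0.23 and an interaction of -0.34 ± 0.12. Ccl4, an attractant of leukocytes, had -0.38 ± 0.17, and Ccl2, the main attractant of Ccr2-bearing monocytes, -0.33 ± 0.25. Replicate 2 of the untreated animals held the lowest Ccl2 difference, 1.63, against 2.54 to 2.93 in the other 4.

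Of 10 CC chemokines 8 had an interaction below 0, 3 with an unadjusted p below 0.05, and the median was -0.31. Over all animals 9 of the 10 were called higher on the left. The mean difference of the 10 genes was 1.49, 1.18, 1.64, 1.30 and 1.77 without and 1.12, 1.36, 1.24, 1.48 and 1.04 with the peptide. These ranges overlapped, and the median was -0.19 when treated replicate 5 was left out. Of 11 CXC chemokines 8 lay below 0, 3 with an unadjusted p below 0.05, with a median of -0.056, which became 0.0078 when the level of the control probe sets was taken as a covariate and -0.00024 without untreated replicate 5. Called over all animals, 4 of the 11 were higher and 2 lower on the left. Cxcl1, an attractant of neutrophils, differed by 0.22 ± 0.16 and 0.048 ± 0.074 and had an interaction of -0.17 ± 0.076. Cxcl13, an attractant of B cells above the control median in 8 of 20 arrays, had the largest interaction of the list in size, 0.28 ± 0.13, in the other direction.

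All 12 measured members of the TNF family had an interaction below 0, 2 with an unadjusted p below 0.05, with a median of -0.090. Over all animals 9 of the 12 were called higher on the left. Tnf itself, the ligand made by activated microglia, differed by 0.58, 0.61, 1.33, 0.36 and 1.27 without and 0.15, 0.34, 0.72, 0.75 and 0.61 with the peptide, and only untreated replicates 3 and 5 exceeded all treated animals. Its interaction was -0.32 ± 0.19 (95% interval -0.73 to 0.10). Tnfsf10, the death ligand TRAIL, differed by 0.44, 0.23, 0.54, 0.42 and 0.48 without and 0.11, 0.34, 0.0012, 0.23 and 0.0095 with the peptide. Untreated replicate 2 alone reached down into the treated range, and the interaction was -0.29 ± 0.078 (95% interval -0.46 to -0.11). With the peptide Tnfsf10 was 0.48 lower in the left and 0.19 lower in the right hemisphere. Fas, a death receptor, had -0.25 ± 0.084, where the left hemispheres of the groups were level (0.021) and the right hemispheres 0.27 higher with the peptide. All 10 right hemispheres lay below the control median for Fas, so this gap is between signals near background.

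The proteins that recognise LPS differed in sign. Cd14, the co-receptor that hands LPS to Toll-like receptor 4, differed by 1.57, 1.69, 1.97, 1.55 and 2.21 without and 1.30, 1.88, 1.52, 1.67 and 1.13 with the peptide, with an interaction of -0.30 ± 0.16 (95% interval -0.64 to 0.036). Untreated replicates 3 and 5 stood above all treated animals, treated replicates 1, 3 and 5 below all untreated ones, and the others overlapped. Ly96 (MD-2), the protein that binds LPS together with Toll-like receptor 4, lay on the other side of 0, with an interaction of 0.30 ± 0.17. Tlr2 had -0.048 ± 0.071, Tlr4, below the control median in all arrays, 0.027, and the adaptor Myd88 0.051. Nfkbia, the inhibitor that NF-kB itself induces, had -0.27 ± 0.13. Of 21 genes of Toll-like receptor and NF-kB signalling 15 lay below 0, 0 had an unadjusted p below 0.05, and the median was -0.055 (-0.020 without untreated replicate 3). Of 16 interferon-induced genes 13 lay below 0 with a median of -0.082, and 0 had an unadjusted p below 0.05. Ifit1, the most negative of these, differed by 1.02 ± 0.20 and 0.79 ± 0.20, and the median of the list was -0.015 without untreated replicate 5.

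Cytokines that signal through gp130 and STAT3 and their targets were 11 of 15 below 0, 3 with an unadjusted p below 0.05, and had a median of -0.12. Over all animals 9 of the 15 were called higher on the left. Il6 was below the control median in all 20 arrays, and its differences of 0.80, -0.0044, 1.32, 0.061 and 0.72 without and 0.31, 0.58, 0.37, 0.041 and 0.15 with the peptide are therefore near background. Socs3, the STAT3-induced brake on these receptors, differed by 0.76 ± 0.29 and 0.47 ± 0.15, with an interaction of -0.30 ± 0.13. Osmr, the oncostatin M receptor, differed by 1.10, 0.92, 1.19, 1.23 and 1.30 without and 0.93, 0.85, 0.59, 0.97 and 0.99 with the peptide, so that untreated replicate 2 lay among the treated animals and treated replicates 1, 4 and 5 above it. Its interaction of -0.28 ± 0.089 (95% interval -0.47 to -0.088) came with a right hemisphere that was 0.33 higher with the peptide and a left hemisphere that was 0.048 higher.

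For several other genes, too, the gap between the groups was wider on the uninjured side, where the treated mean was higher. Hmox1, heme oxygenase 1, differed by 1.56 ± 0.26 without and 1.21 ± 0.31 with the peptide (SD, n = 5 each), and treated replicate 1 was the lowest at 0.68. Its interaction was -0.35 ± 0.15, with a mean that was 0.30 higher on the right and 0.049 lower on the left. Lcn2, the iron-binding lipocalin of reactive astrocytes and neutrophils, was 0.74 higher on the right and 0.39 higher on the left with the peptide. Its differences were 0.46, 0.62, 0.79, 0.66 and 0.61 without and -0.25, 0.69, 0.036, 0.25 and 0.68 with the peptide, so that treated replicates 2 and 5 stood with the untreated animals and replicates 1, 3 and 4 below them, and the interaction was -0.35 ± 0.16. Pdk4 and Ddit4, both induced by glucocorticoids, had interactions of -0.20 ± 0.070 and -0.31 ± 0.091. Their treated means were 0.32 and 0.23 higher on the right, against 0.11 and -0.082 on the left. Trp53inp1, a p53 target, had -0.25 ± 0.077 with a right hemisphere 0.29 higher.

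**Figure D3:**
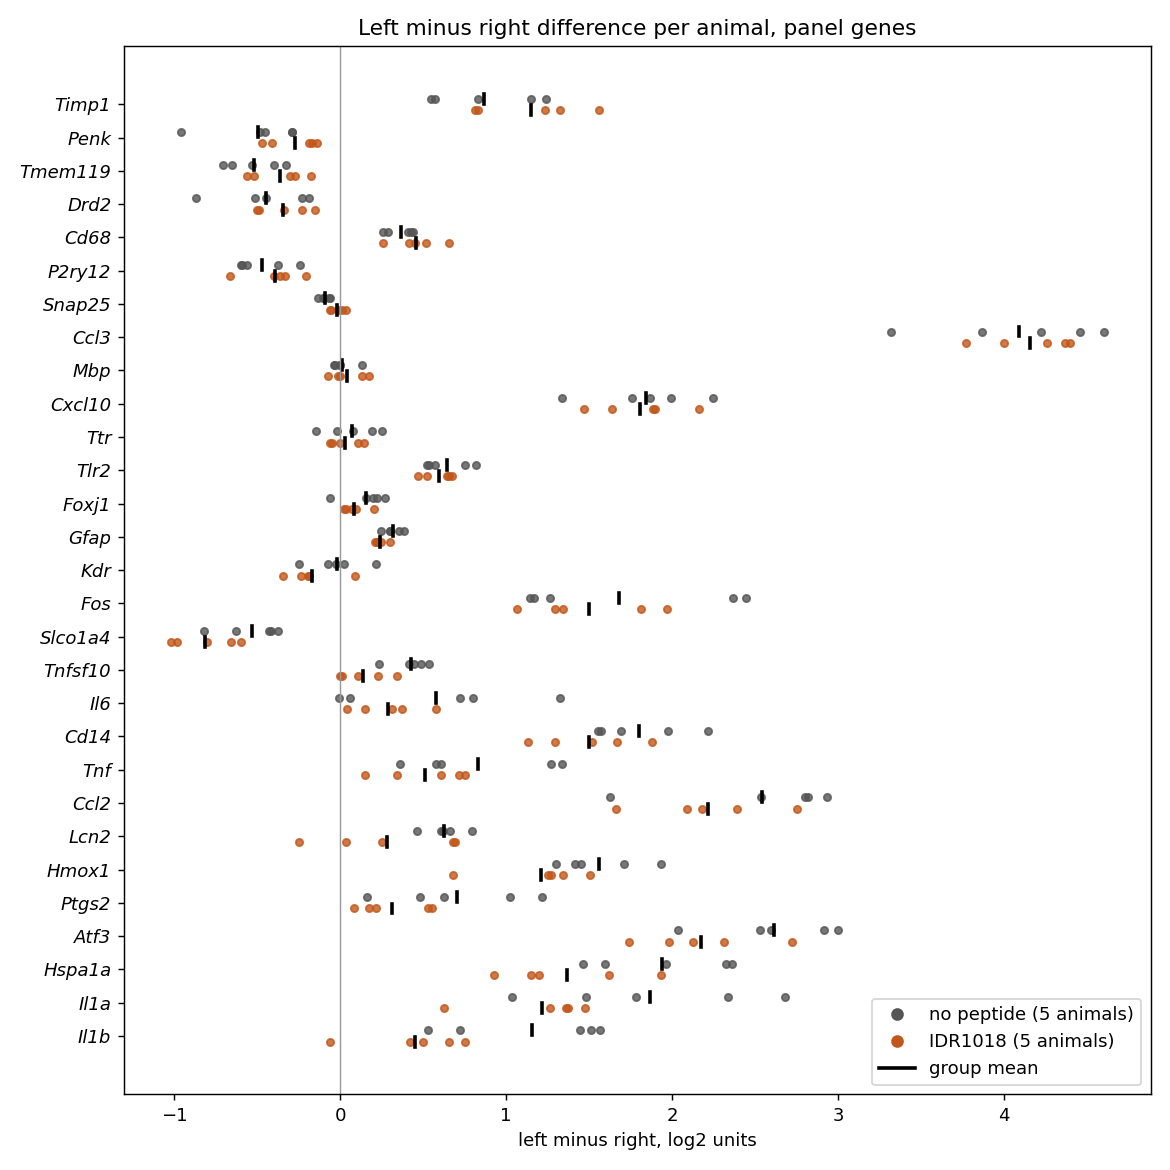
Left minus right difference in log2 units (horizontal axis) of each animal for the 29 panel genes, ordered by interaction, with animals without peptide in grey, animals with IDR1018 in orange and group means as black bars. The groups overlap for all 29 genes; the gap between means is widest for Il1b (1.15 and 0.45) and turns the other way for Timp1 (0.87 and 1.15).

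Of the 29 panel genes 20 had an interaction below 0, with a median of -0.15, and 8 had an unadjusted p below 0.05, all on the negative side. Such a p on that side was held by 1.57% of all genes. Called over all animals, 20 of the 29 were higher and 5 lower on the left. The panel was chosen with earlier results of these data known, so its count is a description. The median was -0.063 without untreated replicate 5.

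Stress genes of injured tissue showed wide scatter among the animals. Hspa1a, the inducible chaperone Hsp70, had left hemisphere values of 10.34, 10.22, 11.22, 10.77 and 11.08 without and 10.00, 10.22, 9.98, 10.64 and 9.65 with the peptide, while all 10 right hemispheres lay between 8.60 and 8.89. The differences were 1.60, 1.46, 2.32, 1.96 and 2.36 without and 1.15, 1.62, 1.20, 1.93 and 0.92 with the peptide. Treated replicates 2 and 4 stood inside the untreated range and the other 3 below it. The interaction was -0.58 ± 0.21 (95% interval -1.04 to -0.11). Hspb1, a small heat shock protein also made by reactive astrocytes, had -0.30 ± 0.13. Of 12 heat shock genes 10 lay below 0, and the median was -0.047, or -0.012 without treated replicate 5.

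Atf3, a transcription factor induced by injury in neurons and glia, differed by 2.59, 2.04, 3.00, 2.53 and 2.91 without and 1.98, 2.31, 2.13, 2.72 and 1.74 with the peptide. Untreated replicates 3 and 5 exceeded all treated animals, and the interaction was -0.44 ± 0.20 (95% interval -0.87 to -0.0070). Fos, the classical immediate early gene, differed by 1.27, 1.14, 2.44, 1.17 and 2.37 without and 1.34, 1.81, 1.97, 1.29 and 1.06 with the peptide, again with replicates 3 and 5 above the rest, and its interaction of -0.18 ± 0.28 had a 95% interval of -0.80 to 0.44. Ccn1, a matrix protein induced early after injury, scattered widely, with 1.10, 0.92, 2.68, 0.97 and 2.22 without and 1.16, 1.45, 1.44, 0.98 and 0.46 with the peptide. Of 22 immediate early genes 19 lay below 0 with a median of -0.090, and 2 had an unadjusted p below 0.05. Over all animals 15 of the 22 were called higher on the left. The means of the list by animal were 0.37, 0.22, 0.96, 0.38 and 0.79 without and 0.41, 0.49, 0.55, 0.47 and 0.28 with the peptide, and the median was -0.00020 without untreated replicate 3 and -0.15 without untreated replicate 2. Gadd45g, a growth arrest gene, had -0.49 ± 0.18, and Ier3, an early response gene, -0.38 ± 0.14.

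Ptgs2, the inducible cyclooxygenase that starts prostaglandin synthesis, differed by 0.48, 0.16, 1.22, 0.63 and 1.02 without and 0.17, 0.55, 0.22, 0.53 and 0.086 with the peptide, and untreated replicates 3, 4 and 5 exceeded all treated animals. Its interaction was -0.39 ± 0.18 (95% interval -0.78 to -0.0019). Of 11 genes of prostaglandin and leukotriene synthesis and reception 8 lay below 0, 1 with an unadjusted p below 0.05, with a median of -0.038 (-0.021 without untreated replicate 3), and Ptgds, the prostaglandin D synthase of the meninges, had 0.17. Called over all animals, 6 of the 11 were higher and 3 lower on the left.

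Among microglial genes the activated and the homeostatic state were counted apart. Clec7a, a phagocytic receptor of activated microglia, differed by 0.88, 0.94, 1.22, 0.84 and 1.43 without and 0.62, 0.82, 0.66, 0.73 and 0.77 with the peptide. Every treated animal lay below every untreated one, and the interaction was -0.34 ± 0.10 (95% interval -0.57 to -0.11). All 10 right hemispheres lay below the control median for this gene and all 10 left hemispheres above it. Gpr84, a receptor that microglia gain on activation, had -0.26 ± 0.11, with means of 1.87 ± 0.27 and 1.61 ± 0.084. Of 20 genes of activated microglia 15 lay below 0 with a median of -0.043, which was -0.019 without untreated replicate 5 and -0.014 with the control level as a covariate. On the positive side Cst7, a cysteine protease inhibitor of activated microglia, had 0.22 ± 0.10, and Cd68, a lysosomal protein, 0.095 ± 0.072. Lilrb4a and Lilr4b, inhibitory receptors among the 10 genes with the largest rise on the left, had interactions of -0.12 ± 0.20 and -0.041 ± 0.16.

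Homeostatic microglial genes were mostly lower on the left, 9 of 12 with an adjusted p below 0.05 by limma over all animals. Tmem119, a marker of resident microglia, differed by -0.65, -0.53, -0.33, -0.70 and -0.40 without and -0.52, -0.30, -0.27, -0.56 and -0.17 with the peptide, which overlapped, with an interaction of 0.16 ± 0.093. P2ry12, the purinergic receptor by which microglia sense damage, had 0.081 ± 0.093. Siglech and Cx3cr1 had 0.13 ± 0.053 and 0.13 ± 0.057. Of 12 such genes 9 lay above 0, with a median of 0.064, which ranged from 0.036 to 0.11 as animals were left out in turn. The measured microglial markers themselves were -0.36 on average without and -0.23 with the peptide, as given above.

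Of 20 genes of reactive astrocytes 16 lay below 0, 4 with an unadjusted p below 0.05, with a median of -0.077. Over all animals 19 of the 20 were called higher on the left. Of all genes raised there at least 1.5-fold, 80.6% lay below 0, and 16.1% had such a p on the negative side. Steap4, a metalloreductase, differed by 0.50 ± 0.17 and 0.21 ± 0.084, with an interaction of -0.29 ± 0.078. Gfap, the intermediate filament of astrocytes, differed by 0.30, 0.35, 0.30, 0.25 and 0.38 without and 0.25, 0.22, 0.22, 0.30 and 0.21 with the peptide, with an interaction of -0.077 ± 0.045 (95% interval -0.17 to 0.021) and overlapping groups. Timp1, an inhibitor of matrix proteases made by reactive astrocytes, went the other way. Its differences were 0.55, 0.83, 1.15, 0.57 and 1.24 without and 0.81, 1.23, 1.32, 0.83 and 1.56 with the peptide, and treated replicate 5, at 1.56, and replicate 3 exceeded all untreated animals. The interaction was 0.29 ± 0.17 (95% interval -0.087 to 0.66). Of 12 genes of the Notch pathway, through which neighbouring cells signal by contact, 11 lay below 0 with a median of -0.062. Nrarp, a feedback inhibitor of Notch and among the 10 genes most reduced on the left, differed by -0.55, -0.50, -0.58, -0.67 and -0.46 without and -0.67, -0.73, -0.65, -0.62 and -0.66 with the peptide and had an interaction of -0.12 ± 0.051. Untreated replicate 4 lay among the treated animals and the other 4 above them.

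Striatal projection neurons, which carry the output of the striatum, are among the cells that hypoxia-ischemia damages. Of 11 of their genes 9 were lower on the left over all animals, with an adjusted p below 0.05 by limma, and 10 of 11 had an interaction above 0, with a median of 0.11. Penk, the enkephalin precursor, differed by -0.48, -0.45, -0.29, -0.29 and -0.96 without and -0.19, -0.17, -0.41, -0.47 and -0.14 with the peptide, with an interaction of 0.22 ± 0.12 (95% interval -0.046 to 0.48). Untreated replicate 5 was the lowest animal, treated replicates 1, 2 and 5 the highest, and the others overlapped. Drd1, a dopamine receptor, had 0.16 ± 0.069 and Ppp1r1b, the dopamine-regulated phosphatase inhibitor DARPP-32, 0.20 ± 0.10. The mean difference of the 11 genes was -0.30, -0.30, -0.25, -0.17 and -0.62 without and -0.16, -0.17, -0.30, -0.25 and -0.18 with the peptide. Untreated replicate 5 stood below all others, and without it the median was 0.037. Snap25, a protein of vesicle release in all neurons, had 0.075 ± 0.043, and the median of 13 presynaptic and pan-neuronal genes was 0.033. Excitatory neuron genes had a median of 0.017 and inhibitory interneuron genes one of 0.0067.

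Oligodendrocyte genes gave small values. Mbp, a myelin protein, had 0.031 ± 0.059. Olig2, a transcription factor of the oligodendrocyte lineage, differed by -0.060, -0.045, -0.11, -0.048 and -0.11 without and -0.014, 0.10, 0.034, 0.037 and 0.060 with the peptide. All treated animals lay above all untreated ones, but the interaction was 0.12 ± 0.043 (95% interval 0.025 to 0.21) and the gene was not called between hemispheres over all animals. Of 10 precursor genes 7 lay above 0 with a median of 0.042, which was 0.0026 with the control level as a covariate and 0.011 without treated replicate 1.

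Vessel genes leaned below 0. Slco1a4, a transporter of the blood-brain barrier, was lower on the left in all 10 animals, with differences of -0.42, -0.43, -0.37, -0.62 and -0.82 without and -0.66, -0.80, -0.98, -1.02 and -0.60 with the peptide. The treated mean was the lower one, with an interaction of -0.28 ± 0.10 (95% interval -0.51 to -0.051), and untreated replicates 4 and 5 overlapped with treated animals. Kdr, the main receptor for vascular endothelial growth factor, had -0.15 ± 0.093 and was 0.46 lower on the left and 0.31 lower on the right with the peptide. Of 16 endothelial and barrier genes 15 lay below 0, with a median of -0.069 (-0.022 without untreated replicate 3, -0.11 without treated replicate 5). Icam1, an adhesion molecule that captures leukocytes, differed by 0.85 ± 0.18 and 0.59 ± 0.22 and had an interaction of -0.26 ± 0.11. The endothelial markers Cldn5, Pecam1 and Cdh5, whose values stand above, belong to the endothelial and barrier list. Of its 16 genes 4 were called higher and 5 lower on the left over all animals, so these markers do not stand for all of it.

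Genes of ependymal cells, the ciliated lining of the ventricles, were all 10 below 0 with a median of -0.16, which was -0.085 without treated replicate 4 and -0.24 without untreated replicate 3. Their mean difference was 0.25, 0.22, -0.21, 0.089 and 0.11 without and -0.060, -0.17, 0.18, -0.25 and -0.032 with the peptide, and both groups held animals above and below 0. Tmem212, an ependymal membrane protein, had -0.29 ± 0.10, and Foxj1, the factor that switches on motile cilia, -0.074 ± 0.066. The choroid plexus gene Ttr had -0.042 ± 0.078, and 10 choroid plexus genes had a median of -0.040. Meningeal genes had a median of 0.037.

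Medians nearer to 0 were those of the mitochondrial respiratory chain with -0.022, the cell cycle with -0.010, cholesterol synthesis with -0.019, the complement system with -0.029 and genes induced by ATF4 with -0.013, of which 7 of 14 lay below 0. As animals were left out in turn, the medians of these 5 lists lay between -0.056 and 0.024. Neutrophil genes had a median of -0.072, with 6 of 13 above the control median in at least 5 arrays. The erythrocyte list held 2 measured genes, Alas2 with an interaction of -0.21 and Slc4a1 with 0.015. In each of the 45 lists the mean differences of the 2 groups of animals overlapped, and 0 members passed the adjusted test in either direction.

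**Figure D4:**
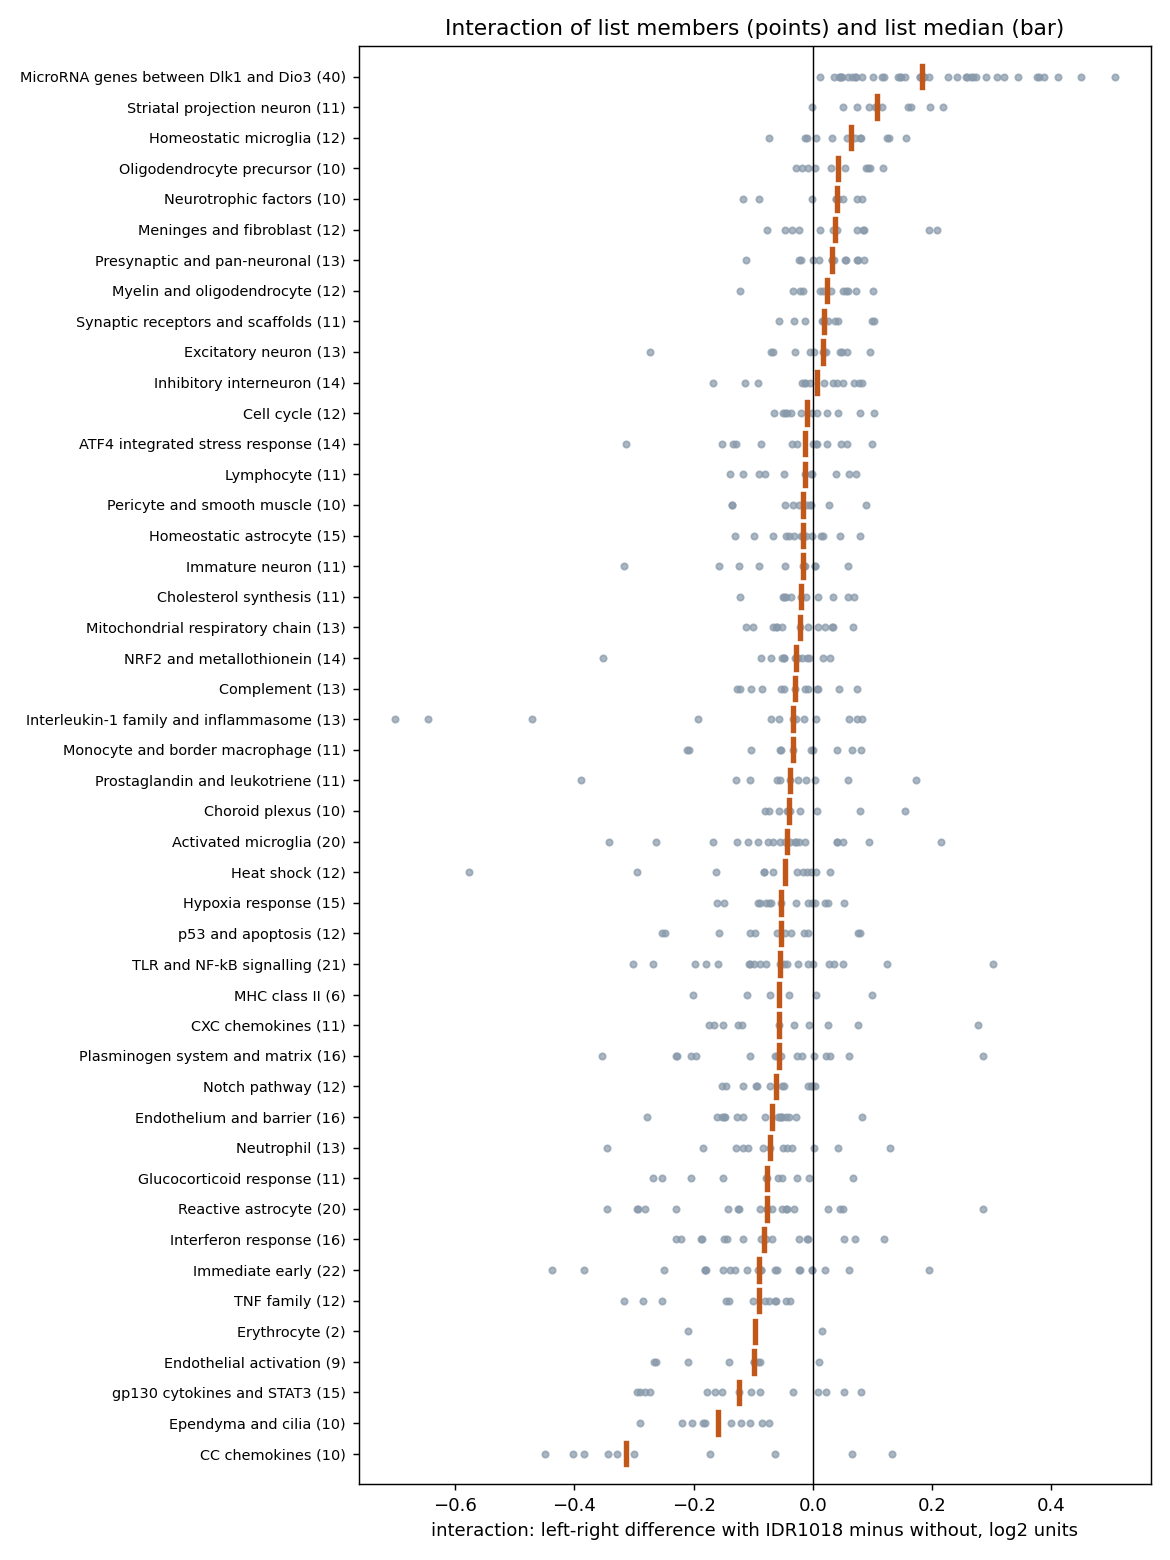
Interaction in log2 units (horizontal axis) of every measured member (grey points) of each gene list, with the list median as an orange bar and the number of measured members in parentheses. Medians run from -0.31 for the CC chemokines to 0.18 for the microRNA genes between Dlk1 and Dio3, and most lie within 0.1 of 0.

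Among genes called between hemispheres, most of the largest positive interactions were those of microRNA genes. Of the 10 genes with the largest positive interaction among those that differed between hemispheres, 7 are microRNA genes of chromosome 12 between Dlk1 and Dio3, an imprinted region whose maternal copy is transcribed in the brain into a long precursor that yields many microRNAs. The other 3 are Mrps21, a mitochondrial ribosomal protein gene, H3c15, a histone gene, and Olfr153, an olfactory receptor gene. H3c15 and Olfr153 lay below the control median in all arrays. The whole set of the region was listed from its coordinates after those 7 had been seen, so its count is a description. A microRNA binds messages mainly through its seed, bases 2 to 8, printed in capitals. A mature microRNA of each of these genes and of 3 more cluster members that were among the 10 genes most reduced on the left are shown, from RefSeq, build GRCm38.p6, 5′ to 3′; all 10 genes had an entry.
mmu-miR-376b-3p: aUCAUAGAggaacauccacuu
mmu-miR-541-5p: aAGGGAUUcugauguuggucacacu
mmu-miR-487b-5p: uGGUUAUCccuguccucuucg
mmu-miR-539-5p: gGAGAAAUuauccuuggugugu
mmu-miR-496a-3p: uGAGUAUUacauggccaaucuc
mmu-miR-485-3p: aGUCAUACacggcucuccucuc
mmu-miR-300-3p: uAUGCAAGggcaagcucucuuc
mmu-miR-329-3p: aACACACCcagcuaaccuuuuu
mmu-miR-379-3p: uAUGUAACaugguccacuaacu
mmu-miR-411-3p: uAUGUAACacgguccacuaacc
They lie on the plus strand from miR-379-3p at chr12:109709102-109709123 to miR-541-5p at chr12:109742422-109742446. Of the sequences shown, miR-379-3p and miR-411-3p share the seed AUGUAAC and the others have different seeds. Arms not shown are left out of this comparison. A probe set measures the gene or its precursor, and the arms cannot be told apart.

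Mir376b, above the control median in all arrays, had differences of -0.13, -1.09, -0.84, -0.61 and -1.28 without and -0.29, -0.98, -0.49, 0.017 and 0.062 with the peptide. Treated replicates 4 and 5 had no deficit on the left, replicate 2 had one as large as the untreated animals, and untreated replicate 1 had almost none. The interaction was 0.45 ± 0.23 (95% interval -0.048 to 0.95). Mir541 followed the same animals, with -0.085, -0.68, -1.14, -0.68 and -1.11 without and -0.32, -0.92, -0.45, -0.18 and 0.24 with the peptide. So did Mir539, with -0.21, -0.74, -0.71, -0.58 and -1.21 without and -0.50, -0.86, -0.34, -0.0041 and 0.15 with the peptide. Mir541 lay above the control median in 1 of 5 left hemispheres without and 4 of 5 with the peptide. Mir379 lay below it in all arrays. Mir487b had an interaction of 0.39 ± 0.21, Mir496a of 0.34 ± 0.16, Mir485 of 0.32 ± 0.17 and Mir300 of 0.31 ± 0.21.

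Of 61 microRNA genes of the region 40 were measured, and all 40 had an interaction above 0, with a median of 0.18, which was 0.10 without treated replicate 5 and 0.30 without untreated replicate 1. Only 1 of the 40, Mir136, had an unadjusted limma p below 0.05, while 1.29% of all genes had such a p on the positive side. Mir136 had an interaction of 0.51 ± 0.20 and was not called between hemispheres. Over all animals 33 of the 40 were lower on the left. The mean of the 40 by animal was 0.0083, -0.58, -0.56, -0.39 and -0.76 without and -0.18, -0.65, -0.37, -0.14 and 0.053 with the peptide, so that the groups overlapped and the genes varied together from animal to animal. They share a precursor and a position, and are not 40 separate observations. The control probe sets moved with them: the left minus right difference of their median was 0.081, -0.16, -0.20, -0.079 and -0.22 without and 0.039, -0.21, -0.10, 0.032 and -0.020 with the peptide. With that difference as a covariate the median interaction of the 40 genes was 0.067, the interaction of Mir376b was 0.23, and those of Mir379 and Mir411 lay below 0. Their part in the result was not tested beyond this. Mir421, a microRNA gene of the X chromosome above the control median in 3 of 20 arrays, was the gene most reduced on the left, and it differed by -0.89 ± 0.45 and -0.90 ± 0.42, an interaction of -0.013 ± 0.23.

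**Figure D5:**
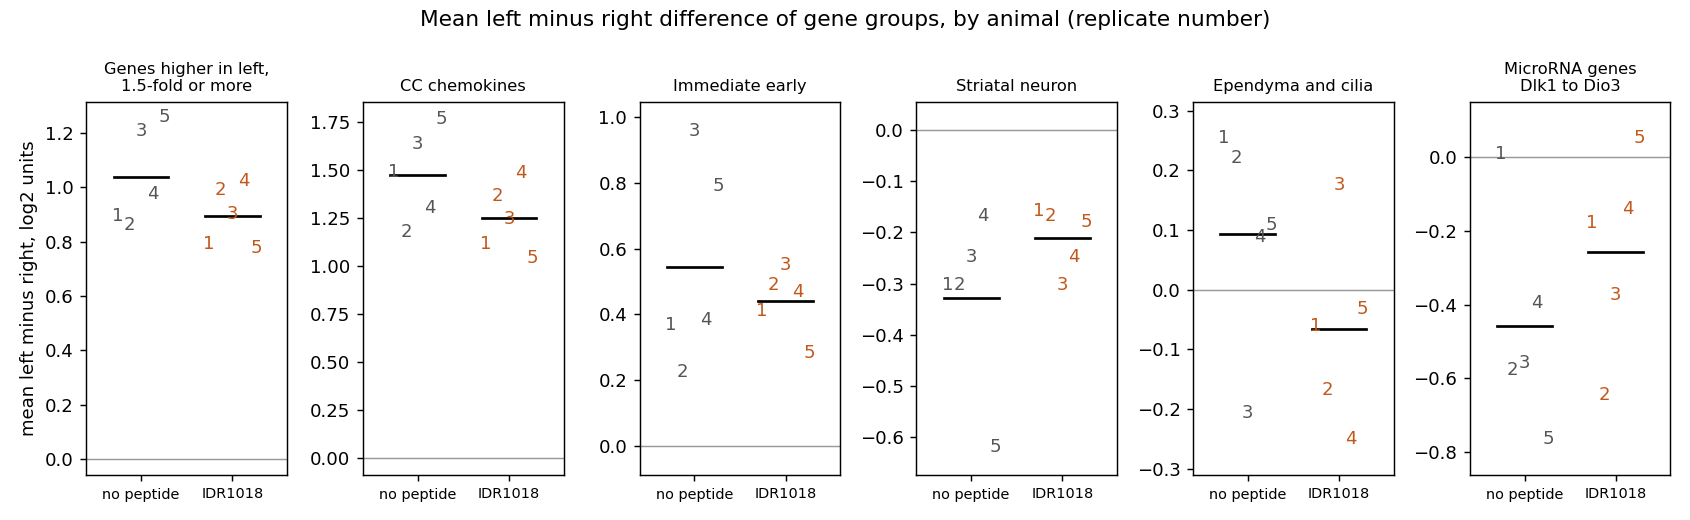
Mean left minus right difference in log2 units (vertical axis) over the genes of 6 groups, with each animal shown by its replicate number and the mean of 5 animals as a black bar, without peptide in grey and with IDR1018 in orange. Untreated replicates 3 and 5 lie highest among the genes raised at least 1.5-fold, at 1.21 and 1.26, and the groups overlap in all 6 panels.

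The genes with the smallest p were mostly dim. Of the 10 with a positive and the 10 with a negative interaction of smallest p, 14 lay below the control median in all 20 arrays, among them Mir221, several olfactory and vomeronasal receptor genes and Saa2, and 5 lay above it in all. Bcl2a1c, of a family of NF-kB-induced survival genes, is the one that also differed between hemispheres with a large rise. Its differences were 1.16, 0.83, 1.38, 0.97 and 1.07 without and 0.55, 0.58, 0.44, 0.73 and 0.77 with the peptide. Every treated animal lay below every untreated animal. The means were 1.08 ± 0.21 and 0.61 ± 0.14, and the interaction was -0.47 ± 0.099 (95% interval -0.68 to -0.26), but only 1 of 20 arrays, a left hemisphere without peptide, lay above the control median. Closely related copies of this gene exist in the mouse, and the probes may not tell them apart.

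Sbpl, which encodes a relative of spermine binding protein, had the smallest p on the positive side and was above the control median in all arrays. It differed by -0.23, -0.13, -0.30, -0.11 and -0.21 without and 0.071, -0.042, 0.080, 0.23 and 0.11 with the peptide, with every treated animal above every untreated one. The interaction was 0.28 ± 0.059 (95% interval 0.15 to 0.41). Hhip, which binds and restrains hedgehog ligands, differed by 0.28, 0.13, 0.16, 0.037 and 0.25 without and -0.055, -0.13, -0.066, -0.015 and -0.13 with the peptide, again without overlap, and had -0.25 ± 0.055. Ccnq, a cyclin, had 0.27 ± 0.059, and Ppp1r36, a regulator of protein phosphatase 1, -0.30 ± 0.071.

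Of the 89 genes whose groups did not overlap, 57 were above the control median in at least 5 arrays and 29 differed between hemispheres over all animals. Clec7a and Olig2 were the 2 members of any list among them. At most 0.226% of genes met this criterion in a direction, as given above, and none of the 89 passed the adjusted test.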

How the data were processed

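Total RNA of both hemispheres of 10 mice was measured on 20 Affymetrix arrays, 5 per group. The authors deposited log2 expression values made by RMA, with affy 1.38.1 per the submitters' processing notes; other settings are not given in the sources used here. RMA equalises arrays, so a shift shared by all genes cannot be seen, and it compresses low values. Of 34760 probe sets, 6573 controls were left out and 28187 tested. The deposited annotation gave 21640 probe sets 1 symbol, 1321 several and 5226 none, and 21553 of the first matched RefSeq. Where several probe sets shared a symbol, the one of highest mean stood for the gene, which left 19937 genes.

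The left and right arrays of an animal share a specimen number in the labels, which is the pairing used. Their deviations from the group means correlated at 0.036 to 0.25 (Pearson's r over probe sets) and most strongly with the same animal's for 9 of 10 animals. The 10 differences were fitted with limma 3.58.1 (R 4.3.3), with the mean and the treatment as terms and Benjamini-Hochberg adjustment over all probe sets at 0.05. The fit was also run on simulated data with added differences of set sizes, whose recovery is not reported here. The p-values set an estimate against the spread between these animals, which limma steadies with that of all probe sets. The number of animals limits the precision.

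The members, the panel of 29 genes and the 45 lists (553 of 596 members measured) were chosen with earlier results of these data known. Genes named are the 10 of smallest p in each direction, the panel, up to 3 of smallest p per list, the 10 with the largest hemisphere difference in each direction and, among genes called between hemispheres, the 10 with the largest interaction in each direction. A few other list members are named beside them, chosen after their values were seen. Alternatives covered the pairing, scaling, control level, dim probe sets, variance model, weights and each animal left out.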

Additional observations from a re-analysis of the deposited data

Results flagged for a closer look

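Within each group of 5 animals the left minus right difference of 190 genes was examined for a single animal far from the other 4, by Dixon's test. Of 380 such groups 13 held one, 7 without and 6 with the peptide, where chance gives about 1 in 20 groups. The count lies below that share, so the values that follow are a description and do not mark an animal as aberrant. Untreated replicate 5 was the low animal for 3 striatal genes. Its Penk difference was -0.9605 (others -0.48 to -0.29), its Drd1 difference -0.4455 (others -0.17 to -0.074) and its Pde10a difference -0.6777 (others -0.36 to -0.24). Treated replicate 5 had the low Il1a difference, 0.6237 (others 1.26 to 1.47), and the low Insig1 difference, -0.1676 (others 0.029 to 0.096).

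Treated replicate 2 was far below the other treated animals for Mir421 at -1.6363 (others -0.84 to -0.58) and for Mir379 at -1.5029 (others -0.61 to -0.28), and above them for S100a9 at 0.216 (others -0.041 to 0.00080). The label of its left array carries the suffix _2, which the labels do not explain. The remaining values were an Fgfr3 difference of -0.8476 in treated replicate 4, a Vcam1 difference of -0.2611 in untreated replicate 4, an Mbp difference of 0.1285 in untreated replicate 3, an Nlgn1 difference of -0.2248 in untreated replicate 1 and an Aurkb difference of -0.1901 in untreated replicate 5.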

How the results depend on the processing

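In the limma fit 0 probe sets passed the adjusted threshold, and 0 did so under each of 17 alternatives, 10 of which left out an animal. The count at an unadjusted p below 0.05, 923, was 781 with no replicate block and 924 with the animal as a random block, which changed no call, 582 with dim probe sets left out, which leaves fewer to test, and 798 to 1269 as animals were left out. The 131 probe sets whose groups did not overlap became 78 without dim probe sets and 222 to 390 with an animal left out, since 4 against 5 overlap less often by construction. The probe sets called between hemispheres, 4459 higher and 4650 lower in the left, stayed within 1.5 times of these counts, at 3935 and 5394 after centring each array.

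Of 3201 values of 190 named genes under the alternatives, 0 moved by more than 1 SD between animals. For most alternatives this was fixed in advance and does not measure stability. Leaving out an animal moves a group mean by less than that SD by construction. The block and variance settings keep the estimate itself, with a median of -0.12 for the 124 genes in each. The sign changed under at least 1 alternative for 12 genes, among them Ccl3 (-0.13 to 0.19), Cxcl10, Fos, Lilrb4a, Mbp and Ttr. Mir379, Mir411 and Mir421 changed sign with the control level as a covariate. The medians of 13 lists changed sign at least once. With that covariate, 86 of the 124 genes raised at least 1.5-fold lay below 0. Genes below the control median rest on signals near background, where a difference is compressed.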
